A study of Solanum lycopersicum with 28 samples.

Results

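Dimethylation of lysine 9 (H3K9me2) and of lysine 56 (H3K56me2) of histone H3 was compared along the tomato genome, from all peaks that were deposited for these marks on the 12 chromosomes. The members were chosen by label alone, and numbered 66570 H3K9me2 peaks and 383515 H3K56me2 peaks, which is 450085 of the 3390517 peaks deposited in 28 lists. The series mapped 26 histone modifications and RNA polymerase II (Pol2) by ChIP-seq, chromatin immunoprecipitation with sequencing, in which an antibody pulls down the DNA wrapped around nucleosomes that carry a given mark. The plants were Solanum lycopersicum of the cultivar M82, wild type and untreated. Leaves were taken at 4 weeks from plants kept at 24 °C under 16 h of light. Each library started from 10 ng of DNA, and single-end reads of 75 bp were taken. An Input library, from chromatin without immunoprecipitation, served as background.

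In plants H3K9me2 marks constitutive heterochromatin, the compact chromatin of transposons and repeats that is gathered around the centromeres. It is written by SU(VAR)3-9 homologues, of which KRYPTONITE is the best known in Arabidopsis, and it is tied to DNA methylation outside CG sites because the methyltransferases CMT2 and CMT3 bind it and the KRYPTONITE family binds the methylated DNA in turn. Lysine 56 lies in the globular part of H3, near the point where DNA enters and leaves the nucleosome, and not in the flexible tail that holds lysine 9. H3K56me2 is far less studied in plants, and the authors placed it in the constitutive class together with H3K9me2, H3K14me1, H3K23me1, H3K27me1 and H3K56me1.

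Each target was represented by 1 library, so no test between libraries was possible. The values below describe these peak lists, and ranges over the 12 chromosomes show how evenly a value held along 1 genome, not how it varied between plants. Leaf is a mixture of cell types, and a base found in both lists need not carry both marks in the same cell or on the same nucleosome.

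Both dimethylations covered a large share of the genome, but in pieces of very different size. H3K9me2 peaks covered 344 Mb (42.8%) and H3K56me2 peaks 261 Mb (32.6%) of 802 Mb. The median length was 2598 bp for H3K9me2 and 431 bp for H3K56me2, and the longest peaks measured 278101 bp and 7394 bp. Peaks of 10 kb or longer numbered 9930 in the H3K9me2 list and held 52.4% of its bases, whereas the H3K56me2 list had 0 of that length and 78.7% of its peaks were under 1 kb. The gaps followed the peaks, with a median of 1951 bp between H3K9me2 peaks and 593 bp between H3K56me2 peaks. The longest gap measured 1071670 bp for H3K9me2 and 156352 bp for H3K56me2. H3K9me2 thus formed fewer and longer stretches, and H3K56me2 formed many short ones that left no gap as long as the widest ones of H3K9me2.

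**Figure D1:**
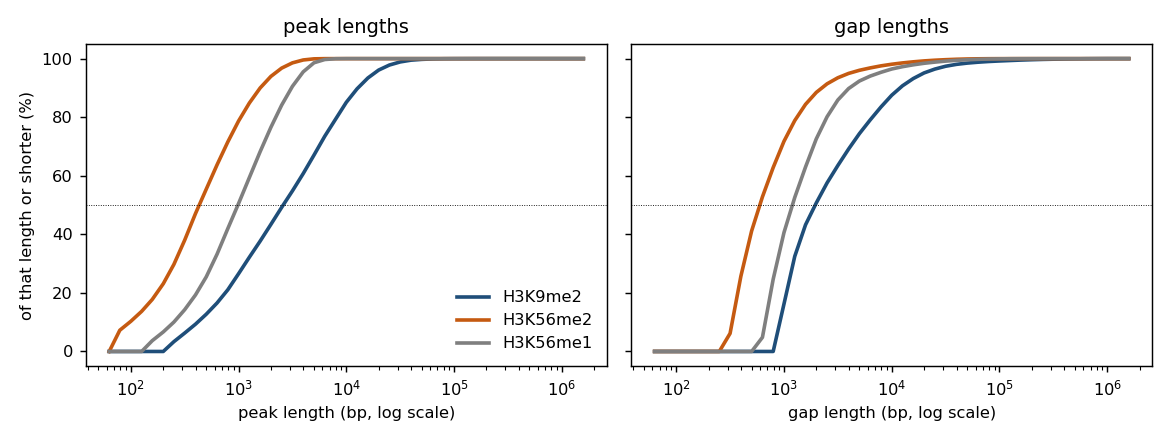
Cumulative share (%) of peaks and of gaps up to a given length (bp, log scale) in the H3K9me2 and H3K56me2 lists, with H3K56me1 for comparison, 1 library each. The dotted line marks the median, which for peaks lies at 431 bp in H3K56me2, 987 bp in H3K56me1 and 2598 bp in H3K9me2.

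Part of this contrast lay in how the peaks were joined. In each broad list the shortest gap was 1 bp longer than 4 times the shortest peak, which put the joining limit at 840 bp for H3K9me2 and at 296 bp for H3K56me2. With H3K56me2 joined across gaps of up to 840 bp, a step chosen after the data were seen, the list held 133761 peaks with a median of 1726 bp. The longest joined peak measured 49547 bp, still below the longest of H3K9me2, and 4407 were 10 kb or longer. The lists also differed in file name, since that of the H3K9me2 file lacks a replicate tag that the H3K56me2 file carries. The part of this difference in the lengths was not tested.

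The lists also differed in the share of peaks that passed a threshold of significance, although their median folds were alike. The fold enrichment, read pileup over local background as an average of the peak, had a median of 1.74 in H3K9me2 and 1.76 in H3K56me2. At a q-value (the p-value corrected for the number of positions tested) under 0.05 there were 32764 H3K9me2 peaks (49.2%) and 42 H3K56me2 peaks (0.0110%). In the other 26 lists together 37.4% of the peaks passed the same threshold. The 4 monomethylations of the constitutive class, which are among these, were as low as H3K56me2, from 0.00496% for H3K56me1 to 0.0125% for H3K27me1. At an uncorrected p-value under 0.05 the shares were 90.5% for H3K9me2 and 73.4% for H3K56me2. The lists hold no read totals, so the depth is unknown. The background level solved from the deposited fold and p-value had a median of 9.44 reads in H3K9me2 and of 2.29 reads in H3K56me2, both approximate because the inputs are averages over broad peaks. Single H3K56me2 peaks were therefore weak calls, and the results below rest on the placing of many of them.

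In the deposited lists most H3K56me2 bases lay in sequence that carried H3K9me2. Of the H3K56me2 bases, 73.8% were in H3K9me2 peaks, and of the H3K9me2 bases 56.2% were in H3K56me2 peaks. Both marks shared 193 Mb (24.1% of the genome), H3K9me2 alone held 151 Mb (18.8%), H3K56me2 alone 68.4 Mb (8.53%), and 390 Mb (48.6%) had neither. H3K56me2 covered 56.2% of the sequence inside H3K9me2 peaks and 14.9% of that outside, a ratio of 3.77. Input peaks went the other way, with 3.78% inside and 7.59% outside. The 73.8% fell to 23.9% when the peaks of both lists that touched Input were left out, a filter that removed 79.3% of the H3K9me2 bases, and was 75.0% when only the H3K56me2 peaks touching Input were left out. The 56.2% of H3K9me2 bases was 35.3% in the latter case and 80.03% with H3K56me2 joined as widely as H3K9me2, across 840 bp.

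The share of H3K9me2 bases that carried H3K56me2 hardly varied between chromosomes, from 55.6% on chromosome 12 to 56.7% on chromosome 1. What varied was the sequence outside H3K9me2 peaks, of which H3K56me2 covered from 9.90% on chromosome 2 to 18.5% on chromosome 10. The ratio of coverage inside to outside accordingly ran from 3.05 on chromosome 10 to 5.65 on chromosome 2. The share of H3K56me2 bases in H3K9me2 lay between 69.5% on chromosome 1 and 77.3% on chromosome 3. All 12 chromosomes thus had more than 3 times as much H3K56me2 inside as outside.

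At the scale of single stretches, the genome in these regions switched between the marks over short distances. Stretches with both marks had a median length of 478 bp, those with H3K9me2 only 442 bp and those with H3K56me2 only 271 bp. Of the shared stretches, 77.8% had H3K9me2 alone on either side, and of the H3K9me2-only stretches 75.7% lay between shared ones. At the deposited joining limits H3K56me2 accordingly appeared as short stretches within longer H3K9me2 peaks. Of the gaps between H3K56me2 peaks that lay inside H3K9me2, 80.7% were no longer than the 840 bp that the H3K9me2 list itself bridges, so most of these breaks would be closed at its limit. H3K56me2-only stretches were a different kind, as 65.3% had neither mark on both sides and 1.00% linked a pair of shared stretches.

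By peak, 207360 H3K56me2 peaks lay entirely inside an H3K9me2 peak, which was 54.1% (95% Wilson interval 53.9% to 54.2%). Among the peaks of the other 26 lists 25.8% did so, and among Input peaks, which are much shorter, 29.6%. The 4 monomethylations of the constitutive class, whose lists were joined more widely, came nearer, with 48.8% for H3K14me1, 46.7% for H3K56me1, 46.4% for H3K23me1 and 43.0% for H3K27me1. A further 57227 H3K56me2 peaks crossed an H3K9me2 end, or 14.9% (14.8% to 15.0%), and 118928 lay wholly outside, or 31.0% (30.9% to 31.2%). The intervals cover counting error only, and neighbouring peaks are not independent. Over the chromosomes the inside share ran from 49.0% on chromosome 1 to 57.6% on chromosome 3, the crossing share from 13.6% on chromosome 2 to 15.8% on chromosome 10, and the outside share from 27.97% on chromosome 3 to 36.2% on chromosome 1. The inside class was the largest on every chromosome. The order of the classes turned when the peaks of both lists that touched Input were left out, with 13.4% inside and 79.1% outside, whereas 56.2% were inside when only the H3K56me2 peaks touching Input were left out. With H3K56me2 peaks joined across 840 bp, 28.01% were inside, 36.8% across an end and 35.2% outside.

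The 3 placements differed in length more than in fold. The median length was 493 bp inside, 880 bp across an end and 269 bp outside, and the median fold 1.78, 1.79 and 1.70. Longer peaks have more chance to reach an end, so that the length of the crossing class is partly set by its definition. At an uncorrected p-value under 0.05 stood 82.2% of the inside peaks, 82.1% of the crossing peaks and 53.8% of the outside peaks. An Input peak was touched by 21.7% of the inside, 36.9% of the crossing and 23.8% of the outside peaks. The outside peaks were hence shorter and less often strong. Their share touching Input was close to that of the inside peaks, although longer peaks have more room to touch one. By base, Input covered 7.28% of the H3K56me2-only and 3.94% of the shared bases.

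Strength and length tracked the placement closely. Among the 10% of H3K56me2 peaks with the lowest fold (up to 1.57) 64.8% were outside H3K9me2, against 31.0% over all peaks. In steps of 10% by fold, the outside share of the 3 highest steps lay between 20.6% and 22.8%. By length, 53.5% of the peaks under 150 bp were outside, 22.5% of those from 500 bp to 1 kb, 10.2% of those from 1 to 2 kb and 0.922% of the 6830 peaks of 3 kb or longer. Long H3K56me2 stretches away from H3K9me2 were therefore rare, and many of the outside peaks were short, weak calls. By zone of the chromosome only the lowest step stood apart, with 16.6% of its peaks in the outer 10% at the chromosome ends. That share was 9.32% in step 2, fell to 6.13% in step 6 and was 7.89% in the highest step. Over all peaks it was 7.99%.

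Outside H3K9me2, H3K56me2 was concentrated next to it. The outside peaks were a median of 1685 bp from the nearest H3K9me2 end. Within 1 kb lay 43689 of them, a further 59191 lay up to 10 kb away, and 16048 lay beyond that. The most distant group had a median length of 201 bp and a median fold of 1.62. Of its members, 54.9% were in the outer 10% of a chromosome, where H3K9me2 peaks are sparse.

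Read by base, H3K56me2 coverage fell by stages with distance from H3K9me2 ends. Just outside an end, at 0 to 250 bp, H3K56me2 covered 41.1% of the bases, below the 54.3% found over the same distance inside. It then fell to 28.2% at 500 bp to 1 kb, 15.3% at 2 to 5 kb, 4.54% at 10 to 20 kb and 1.79% beyond 50 kb. Input was flatter, from 5.37% next to the ends to 8.47% beyond 50 kb. Beyond 10 kb H3K56me2 covered less than Input did, but the coverages are not on one scale. Input peaks had a median length of 118 bp, against 431 bp for H3K56me2. At an uncorrected p-value under 0.05 stood 100% of the Input peaks and 73.4% of the H3K56me2 peaks. H3K56me2 peaks crossed 64992 of 133140 H3K9me2 ends (48.8%), a share between their coverage just outside (41.1%) and just inside the ends (54.3%). Over the whole genome they covered 32.6%. The end of an H3K9me2 peak was thus no sharp limit for H3K56me2.

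**Figure D2:**
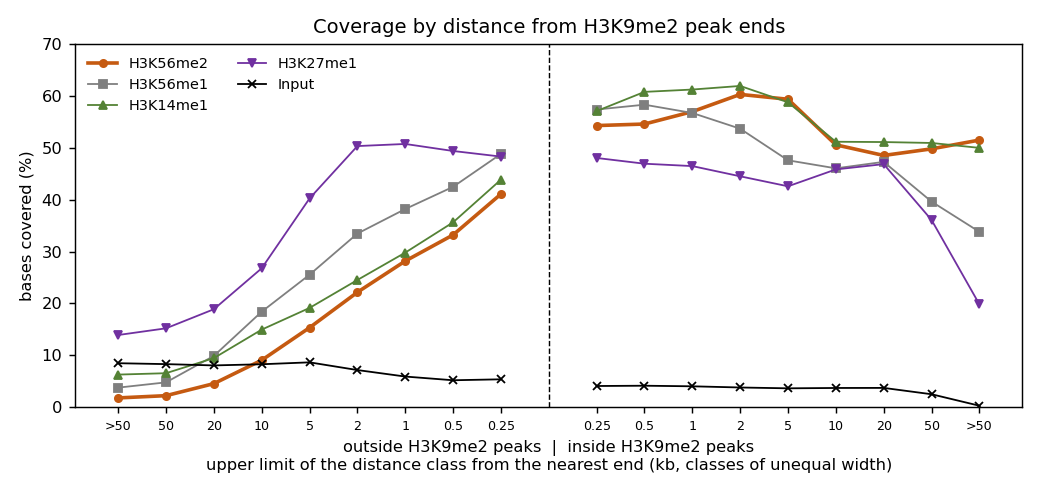
Share of bases covered (%) by H3K56me2, 3 monomethylations of the same class and Input, in classes of distance (kb, of unequal width) outside (left) and inside (right) H3K9me2 peaks, counted from the nearest end over 12 chromosomes. H3K56me2 falls outwards from 41.1% to 1.79% and stays between 48.5% and 60.3% inside, while Input stays at or below 8.64% throughout.

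The gaps between H3K9me2 peaks gave the same picture. H3K56me2 covered 37.6% of the bases in gaps under 1 kb, 27.96% in gaps of 2 to 5 kb, 14.7% in gaps of 10 to 50 kb and 2.58% in gaps of 50 kb or longer. Input covered 5.50% of the shortest and 8.54% of the longest class. A gap was rarely filled, as an H3K56me2 peak spanned 1833 of 66558 gaps (2.75%), of which 917 were under 1 kb and 0 were 5 kb or longer. The gaps between H3K56me2 peaks were shorter inside H3K9me2 (median 477 bp) than outside (820 bp).

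Almost every H3K9me2 peak held some H3K56me2, but so did most gaps between these peaks, 92.1% of 66558. The 63612 peaks with at least 1 shared base made up 95.6% of the list, and of the 2958 without any, 1880 were under 500 bp. The share with H3K56me2 rose with length from 77.7% in peaks under 500 bp to 98.1% at 1 to 2 kb and 100% of the 9930 peaks of 10 kb or longer, as longer peaks offer more room for an overlap. The share of bases covered depends less on length and was 55.7% in peaks under 500 bp, 62.7% for lengths of 2 to 5 kb, 59.6% for 5 to 10 kb, 53.2% for 10 to 30 kb and 50.7% for 30 kb or longer. The median number of H3K56me2 peaks touched by an H3K9me2 peak was 2 over the whole list and 27 in the 868 peaks of 30 kb or longer. Over all lengths H3K9me2 fold made little difference, with 55.1% to 56.9% of the bases covered in 4 classes of equal number by fold. These classes also differed in length, with medians of 889 bp in the lowest and 7780 bp in the highest. Within a length class, peaks with a fold at or above their median were covered more. At 2 to 5 kb 65.4% was covered against 59.6% below it, and at 5 to 10 kb 62.2% against 56.9%. At 10 to 30 kb the values were 54.2% and 52.2%.

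Within H3K9me2 peaks of middle length, H3K56me2 was densest at the centre. In the 12044 peaks of 5 to 10 kb it covered 64.7% of the middle 20% of the peak length and 51.3% of the outermost 10% at either end, a difference of 13.4 percentage points that lay between 10.1 and 14.9 on the 12 chromosomes. In the peaks with a length from 2 to 5 kb the values were 66.0% and 58.4%, and the difference of 7.64 ran from 5.65 to 10.8. At 10 to 30 kb the middle (51.0%) and the ends (51.7%) were close, and the difference changed sign between chromosomes (from -3.60 to 1.28). At 30 kb or longer the middle was lower, at 48.8% against 54.7%, on all 12 chromosomes. The stronger peaks carried more of the central excess. Among the peaks of 5 to 10 kb with a fold at or above their median, the middle reached 69.6% against 50.8% at the ends, and below it 59.6% against 51.9%.

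In H3K9me2 peaks of 5 to 10 kb the monomethylation of the same lysine ran in the other direction. There H3K56me1 covered 44.2% of the middle and 55.9% of the ends, a difference of -11.7 that was negative on all 12 chromosomes (-13.6 to -7.97). H3K27me1 was also lower in the middle (38.5% against 46.7%), H3K23me1 slightly so (50.2% against 52.6%), and H3K14me1 higher (60.2% against 56.5%). Input was low in both places, 3.26% in the middle and 3.86% at the ends. Of these 5 marks H3K56me2 had the widest excess in the middle of peaks of 5 to 10 kb, followed by H3K14me1. At 2 to 5 kb H3K14me1 came close to it. Its difference there was 6.54 (3.65 to 9.25 over the chromosomes), beside 7.64 (5.65 to 10.8) in H3K56me2. H3K23me1 was higher in the middle of these shorter peaks too, by 4.34 and on all 12 chromosomes. H3K56me1 (-0.486) and H3K27me1 (-2.96) were not. These are differences between single libraries and were not tested.

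**Figure D3:**
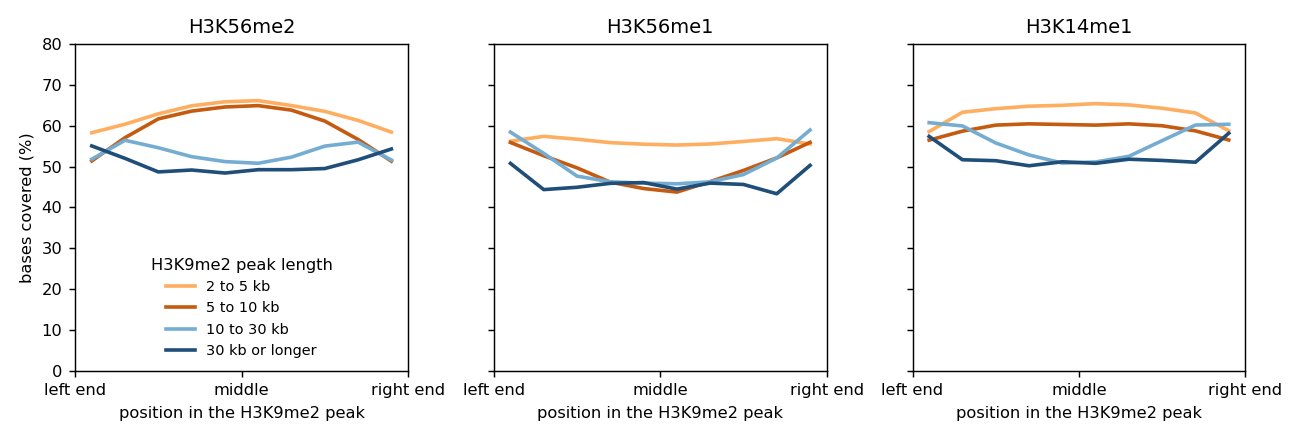
Share of bases covered (%) by H3K56me2, H3K56me1 and H3K14me1 in 10 successive parts of equal length of H3K9me2 peaks from the left to the right end, for 4 classes of H3K9me2 peak length over the 12 chromosomes. In peaks of 5 to 10 kb H3K56me2 is at 64.7% in the middle and 51.3% at the ends, whereas H3K56me1 is at 44.2% and 55.9%.

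Among the broad lists of the constitutive class, H3K56me2 was the most closely bound to H3K9me2 peaks by base. The ratio of coverage inside to outside was 3.77 for H3K56me2, 3.09 for H3K14me1, 2.305 for H3K56me1, 2.303 for H3K23me1 and 1.37 for H3K27me1, with 0.498 for Input. The ratio of H3K56me2 was above that of each of the 4 monomethylations on all 12 chromosomes, with a range of 3.05 to 5.65 against 2.65 to 4.22 for H3K14me1. H3K14me1 covered slightly more of the H3K9me2 bases (57.8%) than H3K56me2 did (56.2%), and also more outside them (18.7% against 14.9%). The 4 monomethylation lists share a joining limit of 600 bp, so their peaks were joined more widely than those of H3K56me2. With H3K56me2 joined across 600 bp as well, again after the data were seen, its ratio was 3.64, and the middle of H3K9me2 peaks of 5 to 10 kb was covered over 82.2% against 66.3% at the ends.

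Along the chromosomes both marks were sparse towards the ends and dense in the middle, and in the deposited lists H3K9me2 more so. In the outer 10% at each end H3K9me2 covered 10.2% and H3K56me2 10.4% of the bases. In the central 60% they covered 56.2% and 41.0%, which gave central to terminal ratios of 5.52 for H3K9me2 and 3.93 for H3K56me2. From the end inwards, in steps of 10% of the chromosome length, H3K9me2 rose from 10.2% to 35.5%, 50.02%, 57.5% and 61.1%, and H3K56me2 from 10.4% to 29.6%, 38.2%, 42.1% and 42.7%. The Input was the reverse, with 8.005% of the terminal and 5.21% of the central bases. Without the peaks of both lists that touched Input the order of the marks turned, as H3K9me2 then covered 3.59% of the terminal and 10.5% of the central bases and H3K56me2 6.89% and 25.1%, the larger relative rise.

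The relation between the marks also changed with position. Of the terminal H3K56me2 bases 59.3% lay in H3K9me2, and of those in the innermost step 78.1%. In the opposite sense, H3K56me2 covered 60.8% of the terminal and 54.6% of the innermost H3K9me2 bases. Outside H3K9me2 peaks H3K56me2 covered 4.72% of the terminal and 22.4% of the central sequence, so that the ratio of inside to outside was 12.9 at the ends and 2.48 in the centre. By peak, 58.1% of the 30648 terminal H3K56me2 peaks lay outside H3K9me2 and 29.2% inside, against 26.4% and 58.5% of the 282457 central ones. At the ends, then, the outside peaks were the majority and yet H3K56me2 was most sharply concentrated in the few H3K9me2 peaks there.

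**Figure D4:**
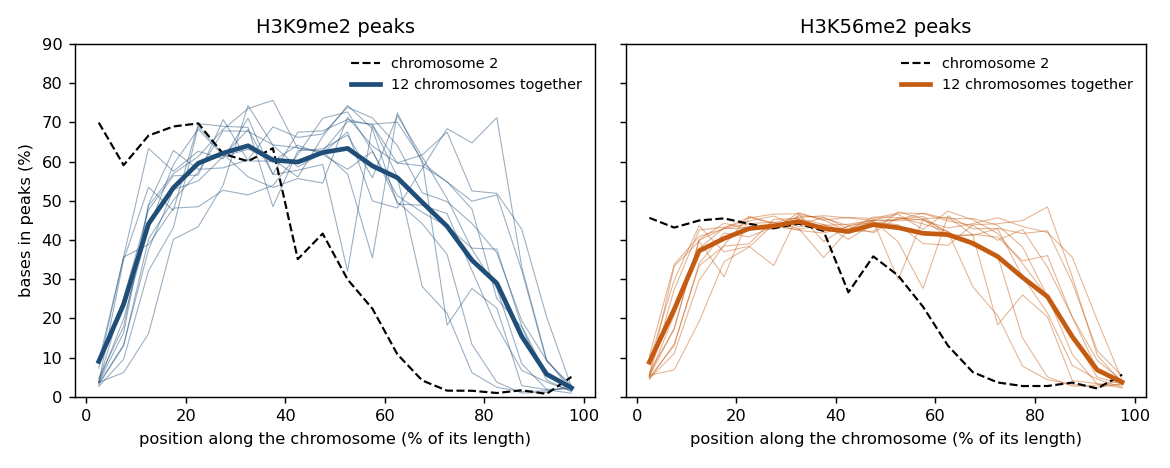
Share of bases in peaks (%) along the chromosomes, in 20 steps of relative position (% of chromosome length), for H3K9me2 (left) and H3K56me2 (right). Thin lines are 11 single chromosomes, the dashed line is chromosome 2 and the thick line all 12 together, and on chromosome 2 both marks are dense at one end and sparse at the other.

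Chromosome 2 stood apart. Its central to terminal ratio was 0.995 for H3K9me2 and 1.09 for H3K56me2, and one of its ends was rich in both marks. In the outermost 5% at that end H3K9me2 covered 69.9% and H3K56me2 45.7%, and in the outermost 5% at the other end 5.08% and 5.65%. On the 11 other chromosomes the ratios ran from 4.12 on chromosome 6 to 12.4 on chromosome 3 for H3K9me2, and from 3.10 on chromosome 1 to 6.79 on chromosome 3 for H3K56me2. On each of those 11 the H3K9me2 ratio was the higher one, by 1.29 to 1.83 times.

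Over windows of 1 Mb the deposited H3K56me2 peaks spanned a narrower range than those of H3K9me2. In 796 windows H3K9me2 ranged from 0.0945% to 86.3% of the bases and H3K56me2 from 1.05% to 49.7%. The upper value depends on the joining limit, since with H3K56me2 joined across 840 bp it covered 60.04% of all central bases. The coverages moved together (Pearson r = 0.96, Spearman rho = 0.93), which is given as a description, since windows share libraries and neighbours. Of the 160 windows with less than 10% H3K9me2, 157 had more H3K56me2 than H3K9me2, at a median of 4.29% H3K56me2 and 8.64% Input. Of the 272 windows with 60 to 80% H3K9me2, 0 could do so, as no window had more than 49.7% H3K56me2. The H3K56me2 of these 272 lay between 35.6% and 49.7%. Both counts depend on the grouping, which used the H3K9me2 value itself. The window with the largest excess of H3K9me2 was chromosome 6 from 15000001 to 16000000, with 86.3% H3K9me2 and 46.9% H3K56me2. The largest excess of H3K56me2 was on chromosome 7 from 26000001 to 27000000, with 49.0% against 40.8% H3K9me2.

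The other lists of the series showed what else covered the shared and exclusive bases. Pol2 and most acetylations were far lower in H3K9me2 than elsewhere. Pol2 covered 0.0678% of the bases with both marks, 0.0657% of those with H3K9me2 only, 1.13% of those with H3K56me2 only and 19.0% of those with neither. H3K9ac, an acetylation of active promoters on the same residue as H3K9me2, covered 0.787% of the H3K56me2-only bases, 19.1% of those with neither, 0.000602% of the shared and 0.000845% of the H3K9me2-only bases. All 13 acetylations covered more of the H3K56me2-only than of the H3K9me2-only bases, and all 13 covered less of them than of bases with neither mark, from 0.787% to 4.06% against 8.19% to 19.1%. For Pol2 and the acetylations, H3K56me2-only bases thus stood between H3K9me2 and unmarked bases. Within H3K9me2 the acetylations had a median of 0.00217% in shared and 0.00237% in H3K9me2-only bases. H3K4ac was the highest of them there, with 1.48% of shared and 1.55% of H3K9me2-only bases, against 3.65% of H3K56me2-only and 8.19% of unmarked bases.

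Methylations gave a more varied order. The 3 H3K4 methylations, which accompany promoters and transcribed genes, followed the order of the acetylations over the genome, with 1.77% to 6.68% of H3K56me2-only and 9.87% to 20.2% of unmarked bases. At the chromosome ends the distance was smaller, as H3K4me1 covered 25.5% of the H3K56me2-only and 31.4% of the unmarked bases and H3K4me2 18.6% and 26.2%. H3K23me3 hardly told the classes apart, with 4.25% of shared, 3.45% of H3K9me2-only, 5.79% of H3K56me2-only and 5.74% of unmarked bases. H3K27me3, the Polycomb mark of facultative heterochromatin, covered 0.231% of shared, 0.286% of H3K9me2-only, 4.98% of H3K56me2-only and 19.98% of unmarked bases. H3K36me3, which in gene bodies accompanies transcription, was instead highest in shared bases (34.0%), then in H3K9me2-only (27.8%), unmarked (18.9%) and H3K56me2-only bases (13.2%). The H3K36me3 list, like that of H3K9me2, lacks the replicate tag, and so do those of Pol2, H3K4me1, H3K9ac and Input. The part of this in the overlap of H3K36me3 with H3K9me2 was not tested. H3K27me2 was nearly even, from 35.5% of unmarked to 47.7% of H3K56me2-only bases. The 4 constitutive monomethylations covered 45.5% to 64.2% of shared, 44.0% to 49.7% of H3K9me2-only, 48.6% to 57.2% of H3K56me2-only and 13.5% to 28.5% of unmarked bases. H3K56me2-only bases were above H3K9me2-only bases for 3 of these 4, and for H3K14me1 they were at 48.6%, against 49.7% of H3K9me2-only and 64.2% of shared bases. In all, 23 of the 25 other targets covered more of the H3K56me2-only than of the H3K9me2-only bases, H3K36me3 and H3K14me1 being the exceptions. Input did so too, at 7.28% against 3.59%.

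**Figure D5:**
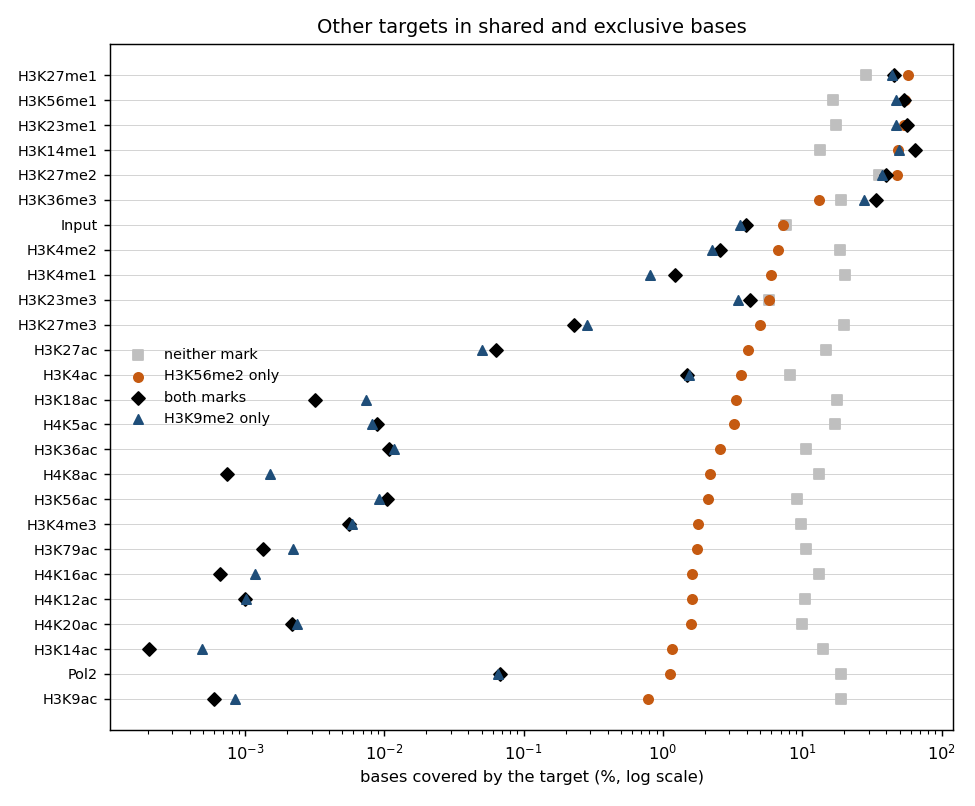
Share of bases covered (%, log scale) by each of 25 other targets and Input in bases with both marks, H3K9me2 only, H3K56me2 only and neither, ordered by the H3K56me2-only value. The 13 acetylations and Pol2 lie highest in bases with neither mark, in between in H3K56me2-only bases and lowest where H3K9me2 is present.

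Single regions illustrate the range, with 1-based positions on the M82 genome, version 1. The longest H3K9me2 peak, 278101 bp with a fold of 4.18, lay on chromosome 6 from 15154300 to 15432400. It was touched by 203 H3K56me2 peaks that covered 48.2% of it, by H3K36me3 over 95.2% and by neither Pol2 nor H3K9ac. The H3K9me2 peak of the highest fold (4.85), on chromosome 6 from 5259216 to 5350345, held 67 H3K56me2 peaks over 47.3% of its 91130 bp. Both were thus covered a little less than the 50.7% over all H3K9me2 peaks of 30 kb or longer.

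The longest H3K56me2 peak (7394 bp, fold 1.88) lay inside H3K9me2 on chromosome 8 from 32354968 to 32362361, and H3K14me1 covered all of it. The longest across an end (6824 bp, fold 1.74) was on chromosome 4 from 12921438 to 12928261, with 94.0% of it in H3K9me2. The longest outside (5418 bp, fold 1.77) was on chromosome 8 from 36420230 to 36425647, 4943 bp from the nearest H3K9me2 end. There H3K14me1 covered 89.0%, H3K27me1 85.4%, H3K56me1 80.4% and Pol2 4.67%. The longest H3K9me2 peak without H3K56me2 (5612 bp, fold 1.62) was on chromosome 12 from 38250161 to 38255772, and 0 other lists had a peak in it.

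The H3K56me2 peak of the highest fold (8.94) was only 120 bp long and lay within 10 kb of the end of chromosome 8, from 66728396 to 66728515. It was inside H3K9me2, Input covered 98.3% of it, and 17 other lists touched it. It was 1 of the 42 H3K56me2 peaks with a q-value under 0.05, whose median length was 124.5 bp and of which 26 were inside H3K9me2, 7 across an end and 9 outside. Their places, examined after their values were seen, were uneven. Within 10 kb of a chromosome end lay 8 of them, at 5 ends, and all 8 touched Input. A further 12 lay within 108 kb on chromosome 3, from 28874442 to 28982730, at folds of 3.19 to 6.199, and 7 of these touched Input. Across that stretch H3K9me2 covered 28.9%, H3K56me2 21.9% and Input 1.27% of the bases, and neither Pol2 nor H3K9ac had a peak. Of the 22 remaining strong peaks 3 touched Input.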

How the data were processed

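Leaf ChIP-seq libraries of 27 targets and 1 Input were deposited as 28 peak lists, with 1 library per target per the labels. The submitters' processing notes name Trimmomatic 0.38, Bowtie2 2.3.5, SAMtools 1.9, MACS2 2.2.7.1 and deepTools, and alignment was to version 1 of the M82 genome. The methods give 2 biological replicates per condition. Pooling of replicates within a list, and the control it was called against, are not given in the sources used here. For each peak the authors deposited a score, a fold (ratio of pileup to background), and −log10 values of a p-value and a q-value. In broad lists, H3K9me2 and H3K56me2 included, these are averages over the peak.

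All deposited peaks of both lists on the 12 chromosomes entered, without a filter. The broad calls reached down to a p-value of about 0.1 (0.0996). Chromosome length was the largest peak end in any list. Overlaps were counted by base with Python 3.11.15, numpy 2.4.6 and pandas 2.3.3, and the scripts were tested on simulated data. An H3K56me2 peak was inside, across an end or outside by whether all, some or 0 of its bases lay in H3K9me2. Windows of 1 Mb excluded the incomplete last one. Named regions were the longest peak and that of the highest fold of each list, the longest H3K56me2 peak of each placement, the longest H3K9me2 peak without H3K56me2, and the windows of the largest excess of each mark. The members, lists and regions were chosen with earlier results of these data known. Peaks on unplaced and organelle sequences entered no comparison. No reference sequence of this build was used, so regions carry no gene annotation. Alternatives were filters on fold, p-value, q-value and Input contact, other zones, other overlap limits and joined peaks.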

Additional observations from a re-analysis of the deposited data

Results flagged for a closer look

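Peaks outside the 12 chromosomes entered no comparison, and the Input was the background for them. On 238 unplaced sequences spanning 4783 kb, H3K9me2 covered 17.8% and H3K56me2 13.2%, both above the 1.04% of the Input. Of these H3K56me2 bases 76.2% lay in H3K9me2, against 73.8% on the chromosomes. On the chloroplast sequence H3K56me2 covered 54.0% (56 peaks) and the Input 36.01%, while H3K9me2 had 0 peaks there. On the mitochondrial sequence H3K56me2 covered 30.3%, less than the 32.3% of the Input, and H3K9me2 again had 0 peaks. At a q-value under 0.05 stood 154 H3K56me2 peaks on unplaced, 32 on chloroplast and 1 on mitochondrial sequence, against 42 on the 12 chromosomes. Input peaks at that threshold numbered 218, 156 and 257 on these 3 kinds of sequence. Whether the organelle peaks reflect the mark was not tested. With 1 library per target, neither a sample far from its group nor a difference between groups could be examined.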

How the results depend on the processing

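All 10 shares moved outside the counting interval of the value as reported under each of the 16 alternatives that bear on them. These intervals take bases and peaks as independent, which they are not, so even small changes fall outside them. At a q-value under 0.05 the intervals were 39.9% to 68.8% inside, 5.194% to 25.0004% across an end and 21.0% to 48.4% outside. They hold the reported values. They rest on 42 H3K56me2 peaks, some of them clustered, so no lack of change can be read from them. In the order H3K56me2 bases in H3K9me2, H3K9me2 bases in H3K56me2, H3K56me2 peaks inside, across an end and outside, H3K9me2 peaks with H3K56me2, terminal H3K9me2, terminal H3K56me2, central H3K9me2 and central H3K56me2, a fold above 1.5 gave 72.1%, 56.1%, 53.2%, 13.1%, 33.6%, 96.7%, 9.77%, 10.4%, 54.9% and 40.8%. In that order a p-value under 0.05 gave 77.8%, 50.1%, 60.1%, 15.4%, 24.5%, 91.3%, 9.93%, 7.88%, 55.4% and 34.5%. Each of these filters was applied to both lists, and a q-value under 0.05 left 32764 H3K9me2 and 42 H3K56me2 peaks. It gave 86.7%, 0.00619%, 54.8%, 11.9%, 33.3%, 0.0702%, 7.78%, 0.00785%, 44.6% and 0.00127%, so that terminal exceeded central H3K56me2 there. Against the unfiltered H3K9me2 list the same 42 peaks were inside in 26 cases, across an end in 7 and outside in 9.

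Without the peaks of either list that touched Input, the shares in that order were 23.9%, 54.2%, 13.4%, 7.52%, 79.1%, 82.4%, 3.59%, 6.89%, 10.5% and 25.1%, so that most H3K56me2 lay outside H3K9me2 and the relative rise from terminal to central bases was larger for H3K56me2 than for H3K9me2. That filter removed 52.6% of the H3K9me2 peaks with 79.3% of their bases, and 93.1% of those of 10 kb or longer. Without only the H3K56me2 peaks that touched Input, chosen after seeing the data, 75.0% of the H3K56me2 bases lay in H3K9me2, 35.3% of the H3K9me2 bases in H3K56me2, and the peaks were inside in 56.2%, across an end in 12.5% and outside in 31.3%. H3K56me2 was then in 81.1% of the H3K9me2 peaks and covered 6.89% of terminal and 25.1% of central bases.

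With H3K56me2 joined across 840 bp, also chosen after the data were seen, 72.1% of its bases lay in H3K9me2, 80.03% of the H3K9me2 bases in H3K56me2, and the peaks were inside in 28.01%, across an end in 36.8% and outside in 35.2%. It was then in 96.1% of the H3K9me2 peaks and covered 14.7% of terminal and 60.04% of central bases. With H3K9me2 joined across 1 kb the peaks were inside in 56.7%, across in 12.9% and outside in 30.4%, and across 5 kb in 73.1%, 4.75% and 22.2%. A limit of 80% of the peak for inside and 20% for outside gave 58.3%, 8.88% and 32.8%, and a limit of 50% gave 63.2% inside and 36.8% outside. H3K56me2 covered at least 10% of the peak in 94.1% of the H3K9me2 peaks and at least 50% in 65.6%.

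A terminal zone of 5% gave 5.65% for H3K9me2 and 6.28% for H3K56me2, and one of 20% gave 22.8% and 20.02%, where H3K9me2 was the higher. A central zone of 40% gave 59.3% and 42.4%. Leaving out 10 kb windows without any peak gave 10.2% and 10.5% for the terminal and 56.5% and 41.2% for the central zone. No paired analysis was possible because each target has replicate 1 only. The depth is unknown, H3K56me2 was called at a lower background than H3K9me2, and the part of this in the number and strength of the peaks was not tested.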
